A study of Mus musculus with 6 samples.

Results

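The annexins followed here are 10 listed genes, Anxa1 to Anxa8, Anxa10 and Anxa11, measured in fibroblasts that lacked or carried the long noncoding RNA Hotair. The members are all probe sets that the array's annotation table assigns to one of these genes. The family was chosen from the values of Anxa8 on these same arrays, where its signal was low in knockout arrays 2 and 3, so the values of Anxa8 are given as a description with no test. The other annexins were taken by name. The table assigns 21 of the 45037 probe sets to 1 annexin of the list each, covering 9 of the 10 genes. The only probe set of Anxa11 is assigned to 3 genes at once, so no value could be given to Anxa11 alone. The 19 probe sets of the 8 genes other than Anxa8 are called its relatives below.

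The cells were neonatal tail tip fibroblasts, the connective tissue cells of the tail of newborn mice. Total RNA of 3 Hotair knockout and 3 Hotair wildtype samples was measured, each on its own Affymetrix expression array, and both genotypes were on a background backcrossed to C57BL6. The labels give no animal, litter or culture for a sample, so the spread between arrays of 1 genotype may be technical. Hotair itself was not analysed here, which leaves each genotype label unchecked by its targeted gene. This includes the label of knockout array 1, whose values were close to those of wild-type array 1 and on which the split within the knockout group rests.

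Annexins bind acidic phospholipids in membranes when calcium is present. A conserved core of repeats carries the calcium sites, and an N-terminal tail that differs between members binds partners such as S100 proteins. They organise membrane domains, join vesicles, take part in the repair of torn plasma membranes and, outside the cell, act in inflammation and blood clotting. Fibroblasts are known for strong expression of several of them.

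The sequences around the starts of 3 genes are shown because the signal of Anxa8 was the one that went low, Anxa7 held the one relative lower by 1 log2 unit or more on both of the same arrays, and Anxa2 is a relative without such a difference. They come from RefSeq on GRCm38.p6, where 8 of the 10 genes had an entry (Anxa3 and Anxa6 had none). Each covers 250 bases before and 50 after the annotated start, 5′ to 3′ on the gene's own strand. Capitals mark matches, on either strand, to the TATA box (TATAAA), the AP-1 motif (TGACTCA), the TEAD motif (CATTCC), the GC box (GGGCGG) and the E-box (CACGTG).
Anxa8, chr14:34085729-34086028, plus strand: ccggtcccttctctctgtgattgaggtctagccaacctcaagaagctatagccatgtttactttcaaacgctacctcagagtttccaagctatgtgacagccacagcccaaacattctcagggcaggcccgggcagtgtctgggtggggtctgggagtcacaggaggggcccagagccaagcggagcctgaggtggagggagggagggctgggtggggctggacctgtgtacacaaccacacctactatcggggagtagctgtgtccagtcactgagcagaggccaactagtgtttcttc
Anxa7, chr14:20479892-20480191, minus strand: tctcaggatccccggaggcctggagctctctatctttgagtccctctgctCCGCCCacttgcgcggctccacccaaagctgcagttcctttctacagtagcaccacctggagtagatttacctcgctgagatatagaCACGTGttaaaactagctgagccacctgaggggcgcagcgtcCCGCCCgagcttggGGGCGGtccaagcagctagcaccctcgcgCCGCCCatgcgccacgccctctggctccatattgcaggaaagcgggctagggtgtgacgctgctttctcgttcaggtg
Anxa2, chr9:69453433-69453732, plus strand: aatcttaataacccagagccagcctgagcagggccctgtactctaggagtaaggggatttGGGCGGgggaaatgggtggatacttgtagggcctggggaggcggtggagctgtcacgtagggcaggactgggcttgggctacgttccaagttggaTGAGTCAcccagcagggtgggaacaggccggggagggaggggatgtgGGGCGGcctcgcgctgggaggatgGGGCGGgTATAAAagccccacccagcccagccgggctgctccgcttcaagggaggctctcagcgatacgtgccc

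The Anxa8 window held none of the 5 motifs and 5 CpG dinucleotides, where the median over all 32851 windows of this length was 7. The Anxa7 window, 1 of 2 listed for that gene, held 4 GC boxes, 1 E-box and 19 CpGs. The other Anxa7 window, not shown, held 1 GC box, no E-box and 4 CpGs. The Anxa2 window held 3 GC boxes, 1 AP-1 match and 1 TATA box. None of the matches in the windows shown overlapped another. A TATA box was found in 13.6% of all windows, the AP-1 motif in 5.2%, the TEAD motif in 14.7%, the GC box in 35.7% and the E-box in 7.15%. Among the other annexins, Anxa10 held 1 TATA box and 2 AP-1 matches, and Anxa1 held 1 TATA box and 1 TEAD match. The Anxa5 window (16 CpGs) and an Anxa4 window (3 CpGs) held none of the 5 motifs, like that of Anxa8. A further Anxa4 window held 1 GC box, and the Anxa11 window held 3. These are matches of letters in a window and were not tested for use.

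The arrays did not group by genotype alone. Across probe sets, which do not vary independently, Pearson's r was 0.983 between knockout and wild-type arrays numbered 1, 0.983 between knockout arrays 2 and 3, 0.985 between wild-type arrays 2 and 3, and 0.930 to 0.963 for the other pairs. Proliferation genes were low on both arrays numbered 1, with a median deviation from each gene's mean of −1.32 on knockout array 1 and −1.78 on wild-type array 1, against 0.55 to 1.05 on the other arrays. Knockout array 1 also had a 3′ minus 5′ signal difference, a sign of RNA degradation, of 0.63 for Actb and 0.75 for Gapdh, where no other array exceeded 0.21 and −0.03. Of 12 fibroblast markers 11 were measured and none lay below the array median on all 6 arrays, though Thy1 (4.65) and Lum (5.03) did so on wild-type array 2.

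The signal of Anxa8 was low on 2 of the 3 knockout arrays, between the lower quartile and the median of each, and bright on the other 4 arrays. Anxa8 is a little-studied member that inhibits blood clotting in vitro and is best known from stratified epithelia and endosomes. Its probe set 1425789_s_at measured 11.62, 4.96 and 5.45 (log2) on knockout arrays 1, 2 and 3, against 11.94, 12.87 and 12.55 on wild-type arrays 1, 2 and 3. Its probe set 1417732_at measured 12.50, 4.58 and 5.07 on the knockout arrays, against 11.91, 12.68 and 12.61 on the wild-type arrays. Both probe sets therefore put knockout arrays 2 and 3 far below every wild-type array, and knockout array 1 beside the wild type. The medians of the 6 arrays lay between 5.57 and 5.68, so the values of these 2 knockout arrays were below the middle of each array, where RMA compresses differences.

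Between arrays of the same number, the RMA value of 1425789_s_at differed by −0.32 at number 1, −7.91 at number 2 and −7.10 at number 3, knockout minus wild type. That of 1417732_at differed by 0.60, −8.10 and −7.54 at numbers 1, 2 and 3. No fold is given for numbers 2 and 3, since these knockout values were not shown to be above background. The means of 1425789_s_at were 7.34 ± 3.71 in knockout and 12.45 ± 0.47 in wild type (SD, n = 3 each), and those of 1417732_at were 7.38 ± 4.44 in knockout and 12.40 ± 0.43 in wild type. The knockout SD thus came from the split of its 3 arrays, and a mean of all 3 describes none of them. The suffix of 1425789_s_at marks a probe set that can read transcripts of more than 1 gene, while 1417732_at carries no such mark. In bulk RNA, fewer cells of a type and less RNA per cell cannot be told apart.

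**Figure D1:**
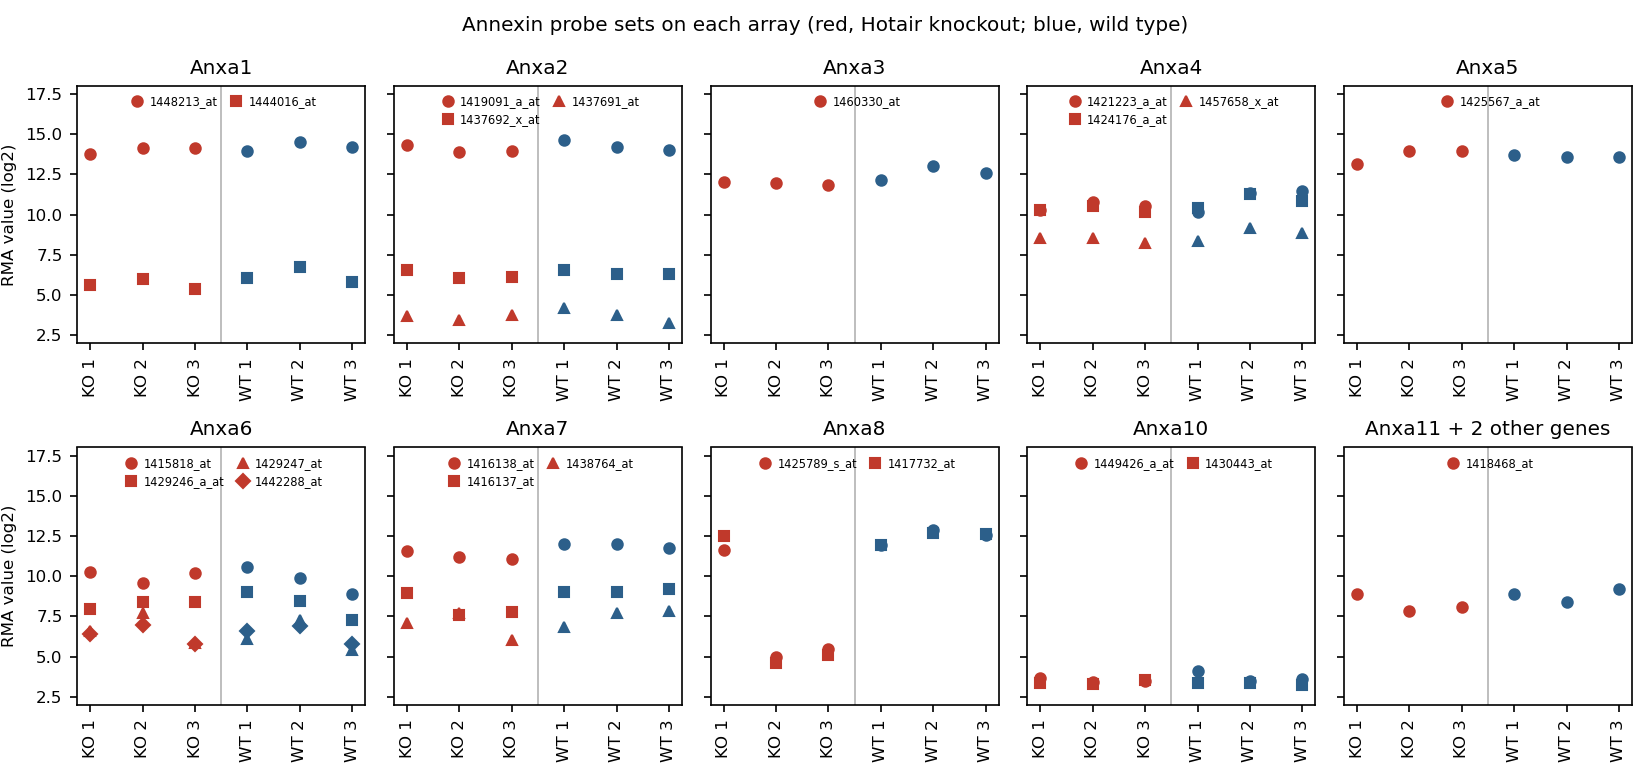
RMA value (log2) of every annexin probe set on each array, knockout arrays 1 to 3 in red at the left and wild-type arrays 1 to 3 in blue at the right of each panel, with one symbol per probe set. Anxa8 lies between 4.58 and 5.45 on knockout arrays 2 and 3 and between 11.62 and 12.87 elsewhere, and no other panel has a gap of this size.

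No relative shared a loss of this size. The question of the comparison was whether the low signal of knockout arrays 2 and 3 extended through the family. By limma over all 6 arrays, 0 of 19 relatives were called at an adjusted p under 0.05 (smallest 0.924), where the share called among all 45037 probe sets was 0%. At an unadjusted p under 0.05 there were 3 of 19 relatives (15.8%) and 2406 of all probe sets (5.34%). With replicate number as a block in limma these counts were 6 of 19 and 4001, and 0 were called after adjustment (smallest adjusted p of a relative 0.536). The relatives had a median difference, knockout minus wild type, of −0.22, with 14 below 0 and 5 above, and all probe sets had a median of −0.00 with 50.9% below 0. Probe sets of 1 gene share their transcript, so the 19 values are not 19 independent observations.

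By replicate number, 11 of 19 relatives, from 6 of 8 genes, were lower in knockout at both numbers 2 and 3, where 29.3% of all probe sets were. A knockout value lower by at least 1 log2 unit at both numbers was seen in 1 relative, 1416137_at of Anxa7, and in 2.89% of all probe sets. Just inside this step stood that probe set, at −1.40 and −1.44, and just outside stood Anxa3, at −1.03 and −0.77. The median over the relatives was −0.17 at number 1, −0.32 at number 2 and −0.14 at number 3, and over all probe sets −0.03, −0.01 and 0.04. In 3 relatives, 2 of Anxa7 and that of Anxa3, the 3 knockout values lay below the 3 wild-type values, as in 4.43% of all probe sets, and in 0 relatives they lay above, as in 4.48%.

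**Figure D2:**
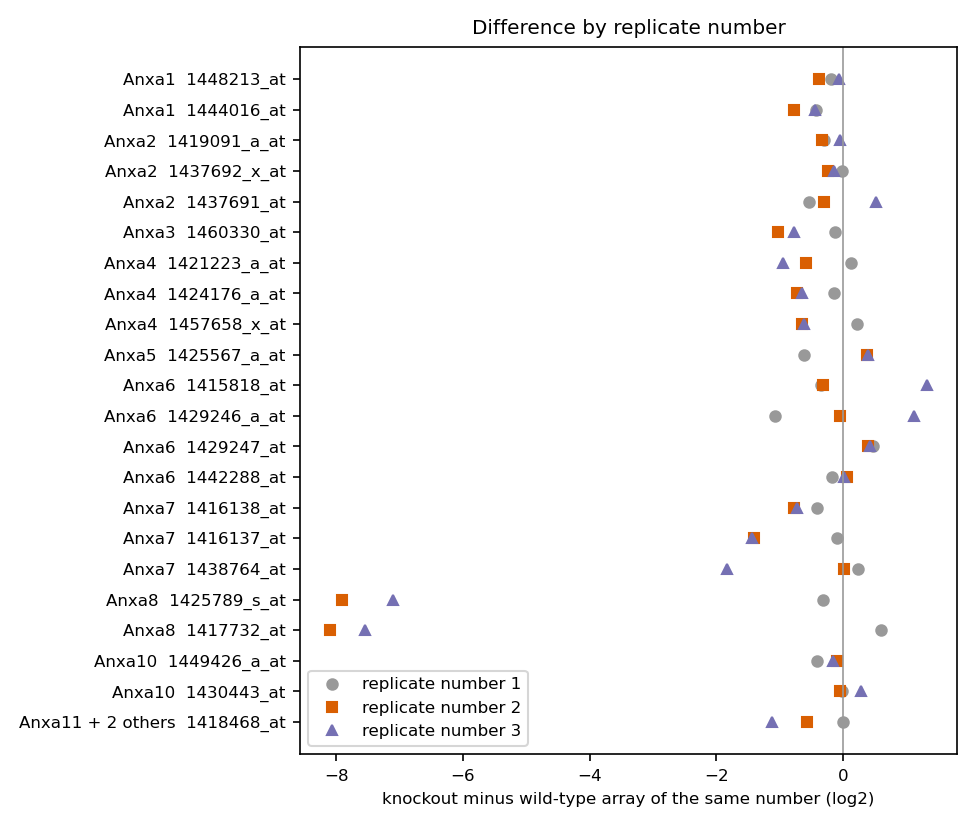
Difference between the knockout and the wild-type array of the same number (log2, horizontal axis) for each annexin probe set, with grey circles for number 1, orange squares for number 2 and violet triangles for number 3. Both Anxa8 probe sets lie between −8.10 and −7.10 at numbers 2 and 3, while the relatives lie between −1.83 and 1.33.

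Anxa7, known as synexin, joins secretory granules and has a long N-terminal tail. Its probe set 1416138_at measured 11.58, 11.22 and 11.04 on knockout arrays 1, 2 and 3, against 11.99, 12.00 and 11.77 on wild-type arrays 1, 2 and 3. Every knockout value was below every wild-type value, and the difference of −0.64 ± 0.18 (SE) was not called (limma adjusted p = 0.924, 95% interval −1.09 to −0.19). Its probe set 1416137_at measured 8.93, 7.59 and 7.75 on the knockout arrays, against 9.03, 8.99 and 9.18 on the wild-type arrays. Here knockout array 1 was beside the wild type and knockout arrays 2 and 3 were lower, with a difference of −0.98 ± 0.37 (SE; limma adjusted p = 0.924). The third probe set, 1438764_at, was at 7.06, 7.71 and 6.01 in knockout and 6.82, 7.70 and 7.84 in wild type and had its lowest value on knockout array 3, with wild-type array 1 the next lowest. All 3 probe sets of Anxa7 had a mean below wild type.

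Anxa11, the other member with a long tail, binds RNA granules and acts in the last step of cell division. The probe set assigned to it together with Gm2260 and Gm2274 measured 8.87, 7.81 and 8.08 in knockout and 8.87, 8.37 and 9.20 in wild type. Knockout arrays 2 and 3 were again the lowest, but the difference of −0.56 ± 0.35 (SE) was not called (limma adjusted p = 0.976), and which of the 3 genes it reads is not known.

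Anxa3, which can join membranes and inhibits phospholipase A2 in vitro, had 1 probe set. It measured 12.03, 12.00 and 11.84 in knockout and 12.16, 13.03 and 12.61 in wild type. The groups did not overlap, but knockout array 1 and wild-type array 1 were only 0.13 apart, and the difference of −0.64 ± 0.24 (SE) was not called (limma adjusted p = 0.924). The 3 knockout values were close together, and the spread lay in the wild type, at an SD of 0.10 in knockout and 0.43 in wild type.

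Anxa4, a vesicle-binding annexin of epithelia, had 3 probe sets that agreed. Probe set 1421223_a_at measured 10.31, 10.77 and 10.53 in knockout and 10.18, 11.36 and 11.48 in wild type. Wild-type array 1 was the lowest of the 6, so the groups overlapped, and the difference was −0.47 ± 0.38 (SE; limma adjusted p = 1). The other 2 probe sets differed by −0.51 ± 0.25 and −0.34 ± 0.25. At numbers 2 and 3 all 3 probe sets were lower in knockout, by −0.95 to −0.59, and at number 1 they differed by −0.14 to 0.23.

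Anxa1 mediates part of the anti-inflammatory action of glucocorticoids, and Anxa2 forms a complex with S100a10 that binds plasminogen at the cell surface. The bright probe set of Anxa1 measured 13.76, 14.15 and 14.13 in knockout and 13.95, 14.51 and 14.20 in wild type. That of Anxa2 measured 14.34, 13.88 and 13.97 in knockout and 14.63, 14.21 and 14.02 in wild type. Knockout and wild-type values overlapped for both, with differences of −0.21 ± 0.20 and −0.23 ± 0.22 (SE), and 95% intervals of −0.71 to 0.30 and −0.76 to 0.31. The dimmer Anxa1 probe set differed by −0.55 ± 0.30 (−0.42, −0.77 and −0.44 at numbers 1, 2 and 3, SE 0.15 with the block, limma adjusted p = 0.539). The dimmer Anxa2 probe sets differed by −0.13 ± 0.18 and −0.10 ± 0.27, the second of them (1437691_at) below the array median in every sample.

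Anxa5, the annexin used as a label for exposed phosphatidylserine on dying cells, had 1 probe set, which was higher in knockout at both numbers 2 and 3. It measured 13.12, 13.95 and 13.96 in knockout and 13.74, 13.57 and 13.56 in wild type. Knockout array 1 was the lowest of the 6 arrays and knockout arrays 2 and 3 were the highest, which left a difference of 0.05 ± 0.26 (SE, 95% interval −0.59 to 0.69). At numbers 1, 2 and 3 the differences were −0.62, 0.38 and 0.40.

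Anxa6, the member with a duplicated core, had 4 probe sets that did not agree. Probe set 1415818_at measured 10.26, 9.55 and 10.20 in knockout and 10.60, 9.87 and 8.87 in wild type, and 1429246_a_at measured 7.97, 8.42 and 8.41 in knockout and 9.04, 8.46 and 7.30 in wild type. In both, wild-type array 3 was the lowest of the 6. Probe sets 1429247_at and 1442288_at instead had their highest values on knockout array 2 and wild-type array 2. For 1429247_at the differences at numbers 1, 2 and 3 were 0.47, 0.40 and 0.43, with an SE of 0.64, or 0.13 with the block (limma adjusted p = 0.541). The 4 differences ran from −0.03 to 0.43, and the widest 95% interval was −1.15 to 2.02. Anxa10, an atypical member of stomach lining, was dim in all samples, at 3.29 to 3.68 in knockout and 3.25 to 4.09 in wild type over its 2 probe sets, with differences of −0.22 and 0.07. The array also held Anxa9 and Anxa13, which are not in the list, and they differed by 0.04 ± 0.14 and 0.25 ± 0.23 (SE). Both were dim, at 5.34 to 5.62 and 3.51 to 4.17, so a lower knockout level could hardly be read.

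**Figure D3:**
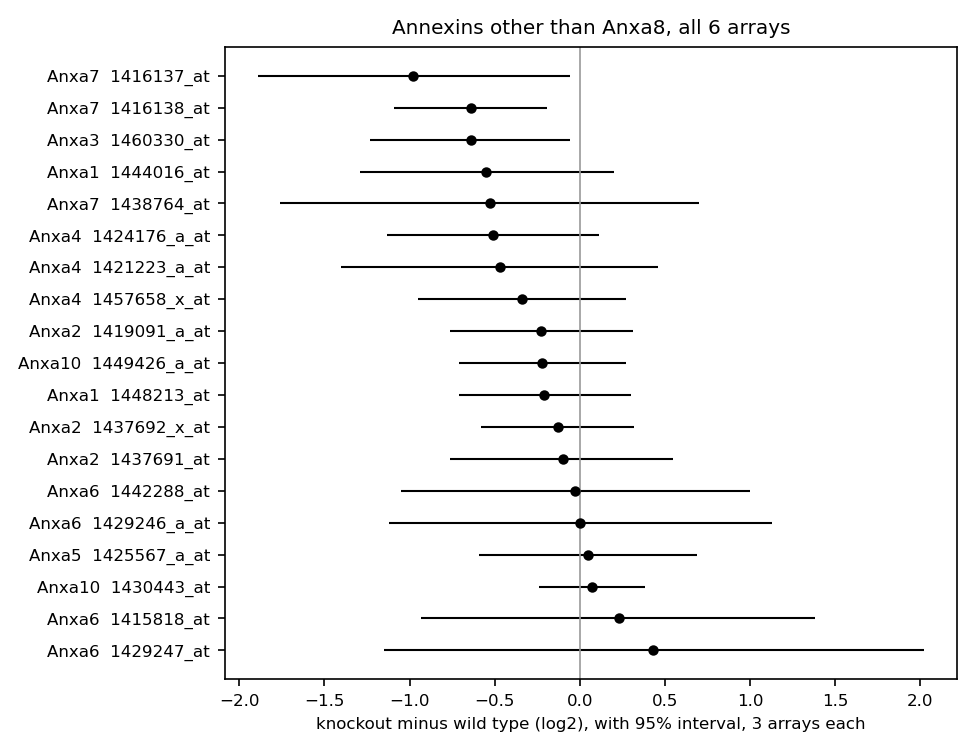
Difference between knockout and wild type (log2, horizontal axis) with its 95% interval for the 19 probe sets of annexins other than Anxa8, from limma over 3 arrays each. The intervals of 3 probe sets, 2 of Anxa7 and that of Anxa3, stay below 0 before adjustment, and the estimates run from −0.98 to 0.43.

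Because both arrays numbered 1 stood apart, the fit was also made without them, on 2 knockout and 2 wild-type arrays. The knockout arrays kept are those whose low Anxa8 signal set the choice of the family. Within each genotype the arrays kept correlated closely (r = 0.983 in knockout and 0.985 in wild type), so their small spread may be technical. Of the relatives, 1 was then called lower, 1416137_at of Anxa7 (−1.42 ± 0.16, SE, limma adjusted p = 0.0326), where 2.06% of all probe sets were called lower. None was called higher, where 2.01% of all probe sets were. Anxa3 was at −0.90 ± 0.20 (limma adjusted p = 0.0918), the other probe set 1416138_at of Anxa7 at −0.76 ± 0.17 (0.0899) and 1421223_a_at of Anxa4 at −0.77 ± 0.16 (0.0812). Anxa5 was at 0.39 ± 0.13 (0.208). Without these arrays the differences of Anxa8 were −7.51 and −7.82. Leaving out knockout array 1 alone called 0 relatives (smallest limma adjusted p 0.0676).

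The partners that annexins bind gave no call over all 6 arrays, where 0% of all probe sets were called. S100a10, the partner of Anxa2, measured 13.66, 13.64 and 13.88 in knockout and 13.65, 13.51 and 13.51 in wild type. S100a6, which binds Anxa11 and Anxa2, differed by 0.08 ± 0.15 (SE), and S100a4, which binds Anxa2, by −0.09 ± 0.15. The calcium sensors Pdcd6 and Sri, both partners of Anxa7 and Anxa11, differed by 0.11 ± 0.15 and 0.25 ± 0.38, and the scaffold Ahnak, which binds the complex of Anxa2 and S100a10, by −0.47 ± 0.34. S100b was at 0.07 ± 0.63 and Prkca, a calcium-dependent kinase, at −0.49 ± 0.54. S100a1 was at 10.91, 6.63 and 7.48 in knockout and 10.56, 9.47 and 8.89 in wild type, so it too was lowest on knockout arrays 2 and 3 (−1.30 ± 1.16, SE). Of this list of 10 genes 9 were measured, with 4 below 0, 5 above and a median of 0.07, beside 0.01 over all 18193 genes. S100a11 was not analysed here.

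The other annexin-related lists also gave 0 calls over all 6 arrays, as did all 45037 probe sets, so this count says nothing particular about the lists. Of the receptor and enzyme list of Anxa1, Fpr2, its receptor, differed by 0.13 ± 0.14 (SE), and Pla2g4a, a phospholipase A2 that Anxa1 inhibits, by −0.69 ± 0.40. Fpr2 lay below the array median in every sample, so a lower knockout level could hardly be read. In plasminogen activation, 4 of 5 measured genes lay below 0 (median −0.37). Plaur, the urokinase receptor, was at 10.71, 8.72 and 9.16 in knockout and 11.81, 10.86 and 11.43 in wild type, while Plat, a plasminogen activator, was at 10.61, 11.42 and 11.52 in knockout and 10.45, 10.56 and 9.94 in wild type. Their knockout values did not overlap with wild type, in opposite directions, as in 4.43% of all probe sets below and 4.48% above. Nor did those of Dysf, Pdcd6ip and Plscr1, named next, which were lower in knockout. In membrane repair, 11 of 14 genes lay below 0 (median −0.21). Dysf, the calcium sensor dysferlin, was at 8.19, 6.40 and 6.54 in knockout and 9.29, 8.97 and 8.90 in wild type, and Pdcd6ip, which recruits ESCRT proteins, differed by −0.97 ± 0.40 (SE). In phosphatidylserine exposure, 4 of 6 genes lay below 0 (median −0.11), with Plscr1, a phospholipid scramblase, at 8.25, 6.57 and 6.81 in knockout and 8.81, 8.86 and 9.49 in wild type, and the flippase Atp11a at −0.86 ± 0.52. Over all genes 48.9% lay below 0.

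Without both arrays numbered 1, 8 of the 36 genes measured in these 5 lists were called lower by limma, where 2.72% of all genes were, and 0 were called higher, where 3.07% were. They were Dysf (−2.47 ± 0.14, SE), Plscr1 (−2.49 ± 0.26), Plaur (−2.21 ± 0.28), Atp11a (−1.50 ± 0.18), Pdcd6ip (−1.45 ± 0.14), Prkca (−1.37 ± 0.17), Pla2g4a (−1.24 ± 0.13) and Capn1, a calcium-activated protease named after its values were seen (−1.83 ± 0.27). These 8 genes were thus lower in knockout arrays 2 and 3 than in wild-type arrays 2 and 3. Among the S100 partners 0 were called, with S100a1 at −2.13 ± 0.37 (SE, limma adjusted p = 0.0595). The probe sets of Pdcd6ip and S100a1 carry the s_at suffix, so they can read transcripts of more than 1 gene. The lists were written with earlier results of these data known, and the fit kept the knockout arrays picked for low Anxa8. The count is therefore a description.

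The genes with array values most like those of Anxa8 likewise had knockout array 1 close to wild-type array 1, and knockout arrays 2 and 3 low. Likeness was the root mean square difference between values, each gene centred on its mean over the 6 arrays, among 7073 named genes that spanned at least 1 log2 unit. The nearest were Ppbp, a chemokine of platelets and neutrophil recruitment (1.02 log2 units away), Dynap (1.15), Smoc2, a secreted calcium-binding matrix protein (1.24), and Ptgs2, the inducible cyclooxygenase (1.24). Then came Klhl13, an adaptor of a ubiquitin ligase (1.25), Grb10, an imprinted adaptor of the insulin receptor (1.33), Btbd11 (1.36) and C1qtnf3, a secreted C1q-like protein (1.41). Ppbp, for instance, measured 13.64, 6.67 and 6.85 in knockout and 13.55, 12.12 and 12.52 in wild type. Grb10 measured 12.31, 8.17 and 7.94 in knockout and 12.10, 12.64 and 12.43 in wild type. These genes were picked for this pattern, so the values are a description. No test was made of any link between them.

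Of the genes beside Anxa8 on its chromosome, those bright enough to read showed no step like that of Anxa8. In gene order on GRCm38.p6 the 5 measured genes on one side were Ptpn20, Gdf10, Gdf2, Rbp3 and A630023A22Rik, and the 5 on the other were Npy4r, Gprin2, Shld2, Glud1 and Fam25c. Their differences ran from −0.22 for Glud1, a mitochondrial enzyme, to 0.78 for Gdf10, a secreted BMP-related factor. Glud1, the bright neighbour, measured 11.24, 11.74 and 11.77 in knockout and 11.75, 11.89 and 11.76 in wild type. Shld2, a DNA repair factor, measured 7.44, 7.73 and 7.81 in knockout and 7.42, 7.35 and 7.34 in wild type. In Shld2 and Gdf10 every knockout value was above every wild-type value, as in 4.48% of all probe sets. Gdf10 measured 6.11, 4.76 and 4.83 in knockout and 4.60, 4.51 and 4.26 in wild type, so its difference came mostly from knockout array 1. Ptpn20, Rbp3, A630023A22Rik, Npy4r and Gprin2 lay below the array median in every sample, and Gdf10 did so on all 3 wild-type arrays, so a lower knockout level could hardly be read in these 6.

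**Figure D4:**
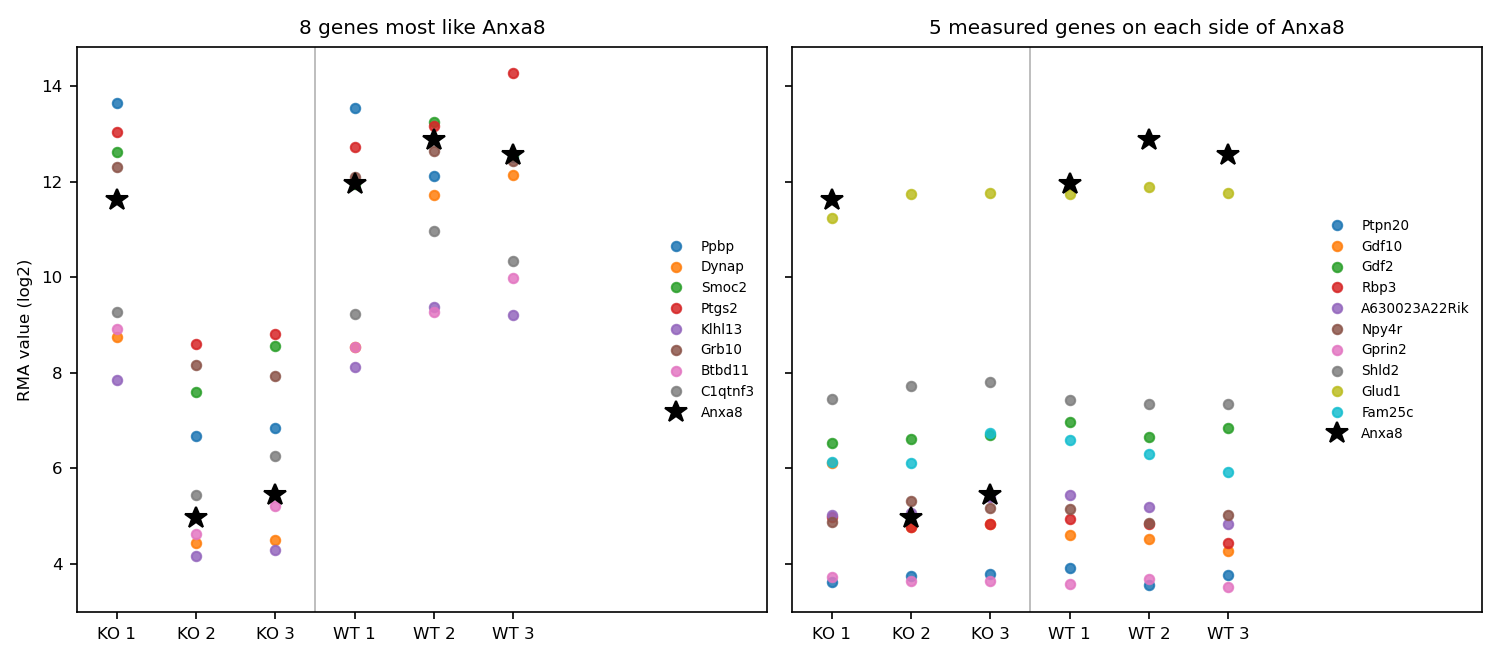
RMA value (log2) on each array, knockout at the left and wild type at the right of each panel, for the 8 genes most like Anxa8 (left panel) and its 5 measured neighbours on each side (right panel), with the 1425789_s_at values of Anxa8 as stars. The 8 genes are lower on knockout arrays 2 and 3 than on their other arrays, while the neighbours, most of them dim throughout, show no such step.

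Markers of other cell types were read on the same arrays. Anxa8 is known from keratinocytes, and of 15 measured keratinocyte markers 10 lay below 0 (median −0.04), with log2 summed signals of 10.14, 9.48 and 9.67 in knockout and 10.09, 10.17 and 9.78 in wild type. The keratins Krt14, Krt15, Krt17 and Krt1 and the markers Trp63, Sfn and Cdh1 lay below the array median in every sample. The desmosome protein Dsp was at 5.49, 3.58 and 3.70 in knockout and 6.43, 6.74 and 6.18 in wild type, and Perp at 7.84, 3.71 and 3.61 in knockout and 7.51, 7.85 and 5.96 in wild type. Both were thus lowest on knockout arrays 2 and 3, and they were named as the 2 of smallest p in the list. Pkp1 was also lowest there, at 5.73 and 5.64, against 5.85 to 6.68 on the other arrays. Krt5, Krt6a, Krt10, Epcam and Lgals7, which were not below the median in every sample either, each had their lowest value on a wild-type array. The part of these markers in the values of Anxa8 was not tested.

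Macrophage markers had 9 of 12 above 0 (median 0.22), with summed signals of 11.61, 9.32 and 8.98 in knockout and 10.06, 9.71 and 9.76 in wild type, and 5 of 12 below the array median in every sample (Ptprc, Adgre1, Itgam, Aif1 and C1qb). Knockout array 1 was the highest, with Tyrobp, a myeloid adaptor, at 9.14, 5.45 and 5.04 in knockout and 5.40, 5.03 and 4.88 in wild type. Cd14, which differed by −1.97 ± 0.61 (SE), was low on knockout arrays 2 and 3. Endothelial markers had 9 of 10 below 0 (median −0.10), with summed signals of 8.70 to 9.66 in knockout and 9.38 to 10.03 in wild type, and 7 below the array median in every sample, among them Pecam1 and Cdh5. Eng was at −0.88 ± 0.41 (SE) and Emcn, among the 7 below the median, at −0.25 ± 0.12. Smooth muscle markers had 5 of 7 below 0 (median −0.07), with summed signals of 14.98 to 15.59 in knockout and 15.18 to 16.03 in wild type, and Acta2 at −0.25 ± 0.13 and Tagln at −0.65 ± 0.43. The other smooth muscle markers Cnn1 and Mylk lay above 0, at 1.55 ± 1.37 and 1.74 ± 1.38 (SE).

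Fibroblast markers had 9 of 11 above 0 (median 0.59), with summed signals of 16.57, 16.98 and 16.85 in knockout and 16.58, 16.53 and 16.40 in wild type, and knockout arrays 2 and 3 the highest. Among them the collagen Col3a1 was at 0.59 ± 0.22 (SE) and the matrix proteoglycan Dcn at 3.10 ± 1.09. The 2 markers below 0 were Vim (−0.24 ± 0.12, every knockout value below every wild-type value) and Fn1 (−0.18 ± 0.25). Some markers varied widely within the wild type. Dcn had a wild-type SD of 2.13, with its lowest value, 6.87, on wild-type array 2. Thy1 measured 12.15, 4.65 and 7.17 on wild-type arrays 1, 2 and 3. Proliferation genes had 12 of 14 above 0 (median 0.26), with summed signals of 13.92, 15.54 and 15.63 in knockout and 13.68, 15.65 and 15.40 in wild type. Rrm2 was at −0.64 ± 0.37 and Mcm2 at 0.48 ± 0.44. Of the genes in these 6 lists, limma called 0 over all 6 arrays, where it called 0% of all probe sets. Without both arrays numbered 1 it called Dsp (−2.82) and Cd14 (−2.81) lower, and Lum (3.12), Cnn1 (3.05) and Mylk (2.79) higher, the last 3 of which were named after their values were seen. That is 2 of 69 measured genes lower (2.9%) and 3 higher (4.35%), where 2.72% and 3.07% of all genes were called, a share near the background. Their part in the annexin values was not tested.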

How the data were processed

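The authors deposited 1 table of log2 values with a column for each of the 6 arrays. According to the submitters' processing notes the values came from RMA, run under R 2.11.1. RMA removes background, forces the arrays onto 1 distribution and combines the probes of each set, so changes of total RNA are hidden and dim signals are compressed. The table held 0 columns of other samples. After 64 control probe sets were left out, the platform table named 1 gene for 34945 of 45037 probe sets, several for 932 and none for 9160. For gene counts, the brightest probe set naming that gene alone was used. For some genes, among them Pdcd6ip, S100a1, Dsp, Btbd11, Acta2 and Mcm2, this probe set carries the s_at suffix and can read transcripts of more than 1 gene.

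All 45037 probe sets were fitted at once in limma 3.58.1 (R 4.3.3; lmFit and eBayes, genotype only, two-sided), with Benjamini-Hochberg adjustment and a threshold of 0.05. The number of arrays limits the precision, since an exact permutation test of 3 against 3 cannot go below 0.1. The procedure was tested on simulated data drawn independently for each array. These lacked the grouping of the real arrays, so they cannot show how the fit behaves under it. P-values reflect array-to-array spread, possibly technical, since no label names separate animals or cultures.

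Both genotypes carry replicate numbers. Same-numbered arrays deviated together (r = 0.50, 0.49 and 0.25 for numbers 1, 2 and 3), which meets the rule for pairing. The reported fit has no block, as laid down for it, and the block is given where it moves a count. Knockout array 2 and wild-type array 3 also correlated, at 0.33.

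Members, lists and alternatives were chosen with earlier results of these data known. The rule named every annexin probe set, every partner and every Anxa1 receptor or enzyme measured, and the 2 genes of smallest p in each other list. It also named the 8 genes most like Anxa8, without predicted genes, and its 5 measured neighbours on each side. Some listed genes, among them S100a11, Fpr1, Fpr3, Fbn1, Dsg3 and Ccnb1, were not analysed here. Alternatives covered the replicate block, prior, normalization, array weights, dim probe sets, 1 probe set per gene, arrays left out and moderation.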

Additional observations from a re-analysis of the deposited data

How the results depend on the processing

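Over all 6 arrays 0 relatives and 0 of all probe sets were called by limma with trended robust priors, quantile renormalisation, array weights, only probe sets above the median level, 1 probe set per gene, or no moderation. With the replicate block the count was also 0 (smallest adjusted p of a relative 0.536), and the block changed no call. Leaving out 1 array called 0 to 48 of all probe sets, the 48 without knockout array 1, and 0 relatives. Without both arrays numbered 1 the counts were 1836 of all probe sets and 1 relative (the Anxa7 probe set 1416137_at, at −1.42). Some differences turned sign: for Anxa2 1437691_at 0.03 with array weights, 0.11 without both arrays numbered 1, and −0.35 to 0.13 when 1 array was left out. For Anxa6, 1429247_at was −0.20 with array weights, 1429246_a_at −0.00 with renormalisation and 1442288_at 0.04 without both arrays numbered 1. Leaving out 1 array gave −0.23 to 0.64 for 1415818_at, −0.48 to 0.39 for 1429246_a_at, −0.06 to 0.94 for 1429247_at, −0.35 to 0.28 for 1442288_at, −0.09 to 0.33 for Anxa5 and −0.00 to 0.12 for Anxa10 1430443_at. The cause was not tested. The Anxa8 differences ran from −7.57 to −3.61 when 1 array was left out, and were −7.57 and −7.25 without knockout array 1. The 8 genes most like Anxa8 stayed 8 with mean absolute differences and 6 when centred on the median. The count of 11 relatives lower at numbers 2 and 3 was 11 after renormalisation, an alternative chosen after seeing the data. All single-gene probe sets of the lists gave 0 calls. Dim signals limit Anxa10, most neighbours and Anxa8 on knockout arrays 2 and 3. They also limit Anxa2 1437691_at, Anxa9, Anxa13, Fpr2 and many of the cell type markers, Emcn among them.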
